A study of Mus musculus with 2 samples.

Results

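The genes described here are 32 genes of cholesterol and fatty acid synthesis, found by symbol among the 23282 rows of 2 count files. They comprise 18 enzymes of sterol synthesis, 5 genes that control or serve the SREBP pathway, 7 genes of fatty acid synthesis and desaturation, and 2 sterol exporters. Each symbol matched 1 row, and all 32 reached the summed count of 20 required of a measured gene. The samples were dorsal root ganglia of wild-type (WT) mice whose skin was treated with acetone, ether and water (AEW), which dries the skin, and of WT mice that received water, the control. Treatment lasted 5 days and ganglia were collected on day 6. Each group was 1 pool of 6 mice and gave 1 library, with 9333882 counts for the control and 14376228 for AEW. No value therefore has a replicate check, and differences describe these 2 libraries.

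Animal cells build cholesterol from acetyl-CoA through mevalonate, squalene and lanosterol. When membrane sterol falls, the escort protein SCAP carries the transcription factors SREBP1 and SREBP2 to the Golgi apparatus, where they are cut free to switch on genes of sterol and fatty acid synthesis. INSIG proteins hold SCAP back when sterol is plentiful. In peripheral nerve, Schwann cells make sterol and fatty acid for myelin, and neurons also express the pathway.

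SREBPs bind a short element close to the start of many of these genes. The 4 windows shown here belong to Srebf2 and Insig1, the genes with the highest and the lowest ratio of the 32, and to Hmgcs1 and Msmo1, the enzyme genes with a match to that element. Each holds the 250 bases before the RefSeq start on GRCm38.p6 (mm10), read 5′ to 3′ on the gene's strand. Capitals mark the element form TCACNCCA and the CCAAT box, the site of the partner factor NF-Y, each on either strand.
Srebf2, chr15:82147019-82147268, plus strand: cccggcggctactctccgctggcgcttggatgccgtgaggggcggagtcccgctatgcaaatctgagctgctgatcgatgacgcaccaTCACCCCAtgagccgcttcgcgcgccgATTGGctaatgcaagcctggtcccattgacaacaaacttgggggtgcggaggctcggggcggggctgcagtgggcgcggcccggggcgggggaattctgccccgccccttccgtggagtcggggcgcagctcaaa
Hmgcs1, chr13:119690101-119690350, plus strand: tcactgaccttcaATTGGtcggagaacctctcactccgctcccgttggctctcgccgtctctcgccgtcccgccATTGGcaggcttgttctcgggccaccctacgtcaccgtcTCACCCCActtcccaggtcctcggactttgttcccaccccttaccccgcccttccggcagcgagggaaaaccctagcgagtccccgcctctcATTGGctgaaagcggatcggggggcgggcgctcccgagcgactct
Msmo1, chr8:64733579-64733828, minus strand: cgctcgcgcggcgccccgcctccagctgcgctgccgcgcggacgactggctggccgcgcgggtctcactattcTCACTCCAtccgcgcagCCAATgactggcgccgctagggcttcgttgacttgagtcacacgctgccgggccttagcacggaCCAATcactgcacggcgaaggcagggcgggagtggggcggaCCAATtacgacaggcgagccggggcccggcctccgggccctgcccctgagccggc
Insig1, chr5:28071162-28071411, plus strand: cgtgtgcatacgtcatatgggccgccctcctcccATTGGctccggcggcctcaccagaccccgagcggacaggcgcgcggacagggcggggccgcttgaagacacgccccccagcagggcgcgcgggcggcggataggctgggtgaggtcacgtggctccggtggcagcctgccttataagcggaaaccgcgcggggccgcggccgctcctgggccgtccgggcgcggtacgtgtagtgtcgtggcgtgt
RefSeq windows were examined for 24 of the 32 genes, with 30 windows in all because some genes have several starts. The remaining genes, Stard4 among them, were left out of this search, so the shares of the 30 windows do not cover them. TCACNCCA occurred in 3 of the 30 windows (10%), those of Srebf2, Hmgcs1 and Msmo1, against 3.67% of 32851 windows of all genes. The match began 162 bases before the start in Srebf2, 137 in Hmgcs1 and 177 in Msmo1. The CCAAT box occurred in 63.3% of the 30 windows and 33.8% of all windows, and the GC box GGGCGG, on either strand, in 76.7% and 32.7%. TCACNCCA and CCAAT can share letters, but no pair does so in the windows shown. The element form was chosen after 2 other forms had been searched in the same windows, and a match describes letters, not a bound site.

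The 32 genes were split in direction, and most were not called. A gene was called when its AEW to control ratio was at least 1.5-fold in either direction and the 95% counting interval of the ratio excluded 1. Called higher were Srebf2, which encodes SREBP2, and the enzyme genes Dhcr7, Fdps and Sc5d, although the ratios of Fdps and Sc5d fell below 1 when libraries were scaled on neuronal markers. Called lower were Insig1, the desaturase gene Fads1 and the exporter gene Abca1. The other 25 were not called.

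The 4 higher genes are 12.5% of the 32, beside 17.3% of 14854 measured genes, and the 3 lower genes are 9.38%, beside 14.9%. At 2-fold, 2 of the 32 were higher and 0 lower, beside 8.23% and 6.85% of all measured genes. These shares lie near or below those of all genes. The median log2 ratio of the 32 was 0.12, against 0.03 for all measured genes. Of the 32, 21 lay between the quartiles of all genes at -0.39 and 0.44. Summed counts of the 32 made up 0.445% of the control library and 0.475% of the AEW library, and on scaled libraries their sum had a ratio of 1.003 (0.991 to 1.02).

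**Figure D1:**
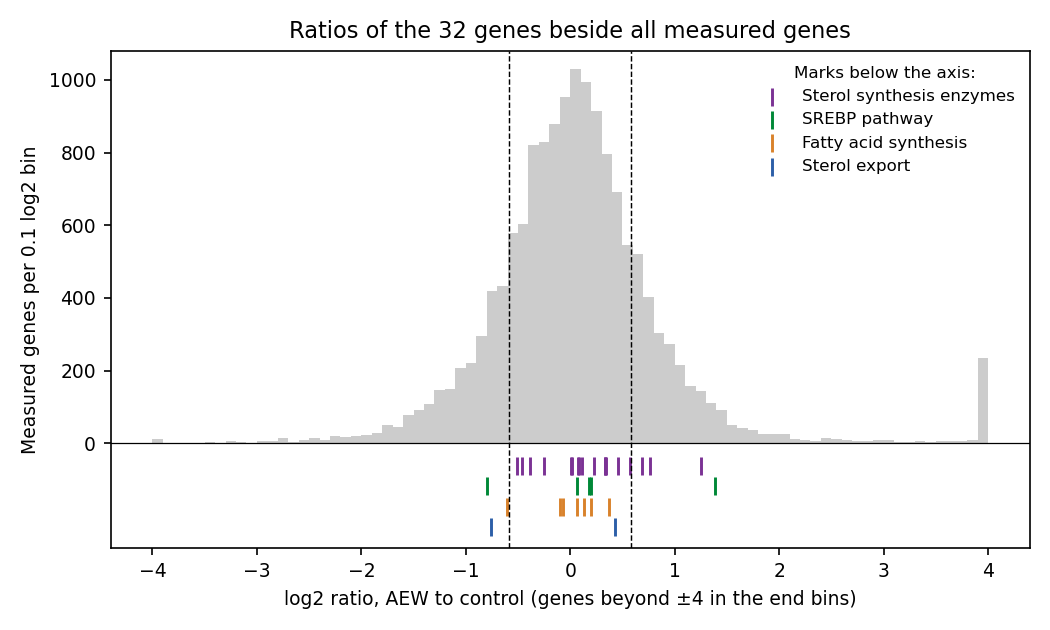
Histogram of log2 AEW to control ratios of 14854 measured genes (grey bars, vertical axis in genes), with each of the 32 genes as a mark below it, 1 row per gene group, and dashed lines at 1.5-fold. The marks lie between -0.79 (Insig1) and 1.38 (Srebf2), with 4 beyond the upper and 3 beyond the lower line.

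Levels are given as CPM, counts scaled to a common library size after TMM normalization. Counting error was small for most of these genes, and more intervals excluded 1 than genes were called. Of the 32 intervals, 14 lay above 1 (43.8%), beside 32% of all measured genes, and 8 lay below 1 (25%), beside 28.9%. A stricter rule compared each gene with the 500 genes of most similar mean level and required it to lie over 3 scaled median absolute deviations (MAD) from their median. By that rule 0 of the 32 genes were called, beside 2.19% of all measured genes higher and 0.64% lower, and Srebf2 was the farthest of the 32 at 2.23 scaled MAD.

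**Figure D2:**
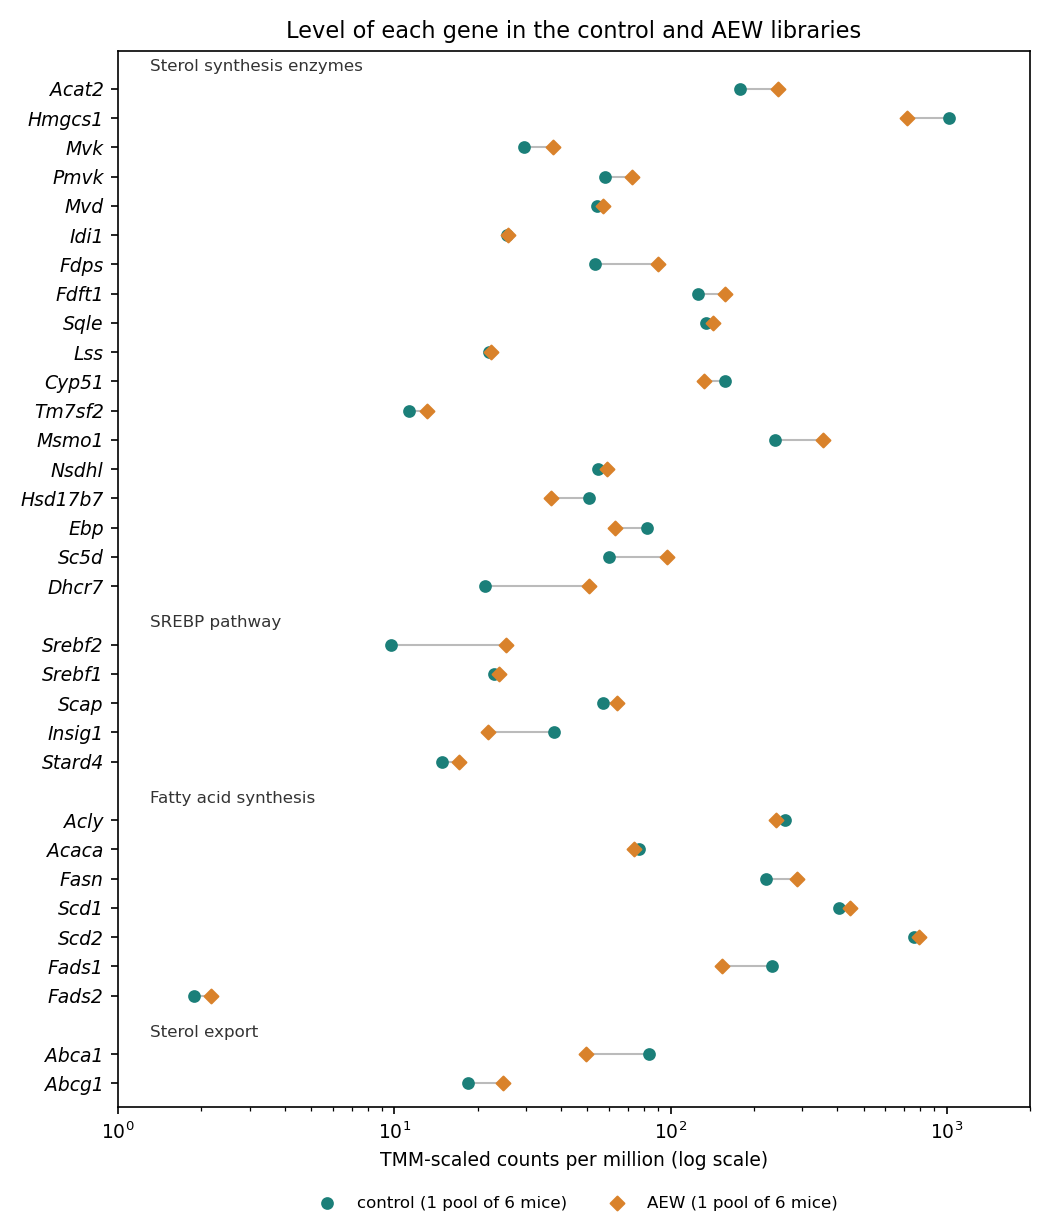
Scaled level (CPM, log axis) of each of the 32 genes in the control (circles) and AEW (diamonds) libraries, each 1 pool of 6 mice, with no error bars because there are no replicates. Srebf2 lies at 9.72 and 25.4 CPM and Dhcr7 at 21.3 and 50.7 CPM in control and AEW, and Insig1 lies at 37.8 and 21.8 CPM.

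Markers of the cell types of a ganglion also differed between the libraries. The labels name neurons as the cell type, but Schwann cell markers summed to 25396 and 21762 CPM in control and AEW, so both libraries hold glial RNA. All measured genes gave 17.3% higher and 14.9% lower. Of neuronal markers, 14 of 22 were higher and 0 lower, with summed levels of 10353 and 16324 CPM. Of Schwann cell markers, 4 of 20 were lower and 0 higher. Of satellite glia markers, 3 of 12 measured were lower and 0 higher (4157 and 2859 CPM). Macrophage markers were lower in 14 of 15 (945 and 360.4 CPM) and fibroblast markers in 6 of 10 (15075 and 7251 CPM). The supporting cells thus had lower summed marker levels in the AEW library, and neurons a higher one. With so few genes, the counts of Schwann cell and satellite glia markers called lower lie near the share of all genes.

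Markers of skin, fat and spinal cord were examined in the same way, beside the same 17.3% higher and 14.9% lower of all measured genes. Keratinocyte markers were higher in 18 of 18 (52.9 and 1391 CPM), with Krt35 and Dsg1a at 0 counts in the control. Of 8 sebaceous gland markers, 5 of 6 measured were higher and 0 lower, and the list summed to 97.2 and 174 CPM. Its genes Awat1, Awat2 and Dgat2l6 had 0 control counts and 224, 19 and 20 AEW counts, and Mc5r had 0 in both. Far2 held most of the summed level in the control and was not called, with 822 control and 1069 AEW counts of the 880 and 2584 of the list and a ratio of 0.794 (0.725 to 0.871). Adipocyte markers were higher in 3 of 11 measured and lower in 0 (374 and 429.7 CPM). Of markers of oligodendrocytes and spinal cord, 1 of 9 measured was higher and 3 lower (88.1 and 88.4 CPM), and Slc6a5 had 0 counts in both libraries. In bulk samples, fewer cells of a type and less RNA per cell cannot be told apart. The part of these cell types in the ratios of the 32 genes was not tested.

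**Figure D3:**
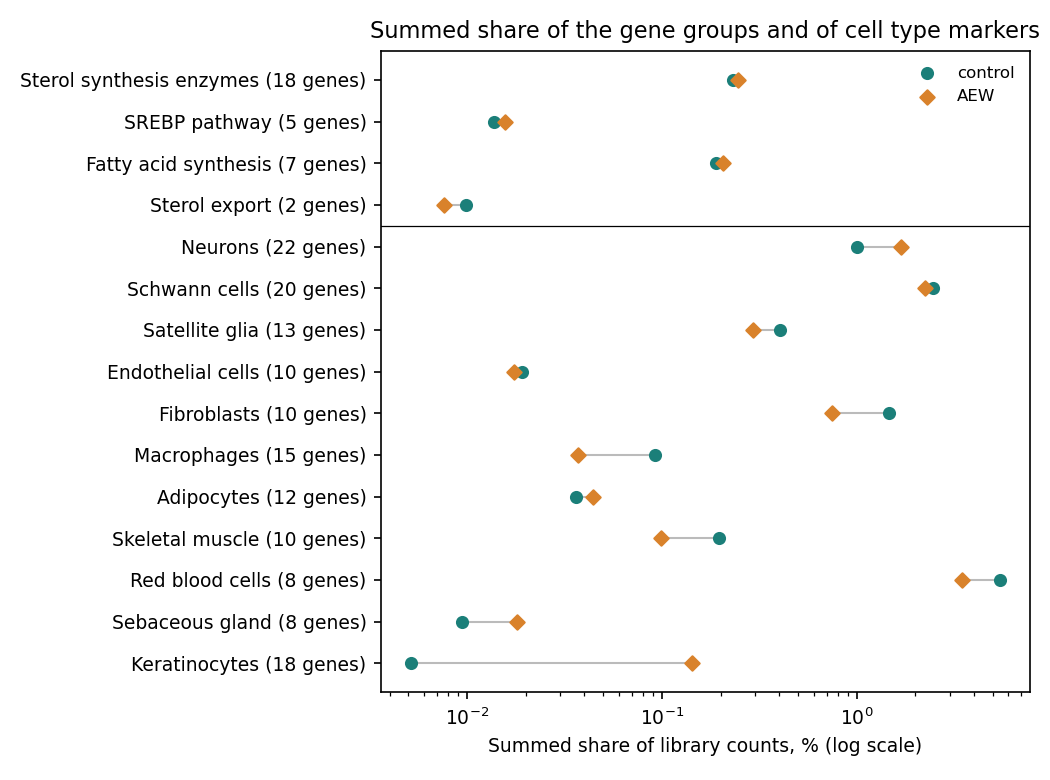
Summed share of library counts (percent, log axis) in the control (circles) and AEW (diamonds) libraries for the 4 gene groups, above the line, and for marker lists of cell types, below it. Sterol enzymes take 0.231% and 0.245% and fatty acid genes 0.191% and 0.206%, while macrophage markers take 0.0917% and 0.0372% and keratinocyte markers 0.00513% and 0.143%.

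Of the 7 enzymes from acetyl-CoA to farnesyl diphosphate, 1 was called higher and 0 lower, beside 17.3% and 14.9% of all measured genes. Fdps, which makes farnesyl diphosphate (ENSMUSG00000059743.12, chromosome 3, 89093588 to 89101959, minus strand), had 481 control and 1335 AEW counts, or 53.1 and 90.1 CPM, and was 1.70-fold higher (1.53 to 1.89). Its log2 ratio was -0.06 with neuronal marker scaling, and 11.7% of its 50-base words also occur in the overlapping gene model Gm43738, so its value is uncertain. Hmgcs1, which makes HMG-CoA (ENSMUSG00000093930.2, chromosome 13, 119690379 to 119708260, plus strand), had 9257 control and 10612 AEW counts, or 1022 and 716 CPM, a ratio of 0.700 (0.681 to 0.720) that was not called. Hmgcs1 alone held 42.9% of the counts of the 18 sterol enzymes in the control (95% Clopper-Pearson interval 42.3 to 43.6) and 30.2% in AEW (29.7 to 30.6). The enzymes summed to a ratio of 0.997 (0.981 to 1.01) with Hmgcs1 and 1.22 (1.19 to 1.25) without it, so this gene offset the others in the sum.

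The other early enzymes were not called, and none had a ratio below 1. Acat2, a cytosolic thiolase that opens the pathway, had 1614 control and 3624 AEW counts and a ratio of 1.37 (1.29 to 1.46). It is uncertain because 45.9% of its 50-base words occur in Acat3, which had 832 and 2206 counts. Mvk and Pmvk, the kinases that phosphorylate mevalonate in turn, had close ratios, 1.27 (1.10 to 1.48) for Mvk with 267 control and 555 AEW counts and 1.26 (1.13 to 1.402) for Pmvk with 523 control and 1079 AEW counts. Mvd, the decarboxylase that follows, showed 489 control and 842 AEW counts, a ratio of 1.05 (0.940 to 1.18). Idi1, the isomerase of the resulting isoprenoid, showed 232 control and 382 AEW counts, a ratio of 1.01 (0.852 to 1.19), and shares 21.3% of its words with the pseudogene Gm13502.

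None of the 3 enzymes from farnesyl diphosphate to lanosterol was called, beside 17.3% of all measured genes higher and 14.9% lower. Fdft1, squalene synthase, showed 1136 control and 2343 AEW counts, a ratio of 1.26 (1.17 to 1.35). Its exons overlap those of Ctsb on the opposite strand (6548 and 10869 counts), and whether counting used strand is unknown, so its value is uncertain. Sqle, squalene epoxidase, showed 1221 control and 2121 AEW counts, a ratio of 1.06 (0.989 to 1.14). Lss, which closes the sterol rings, showed 200 control and 332 AEW counts, a ratio of 1.01 (0.848 to 1.21), and both of these intervals include 1.

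The 8 enzymes after lanosterol ranged from lower to higher. Of these, 2 were called higher and 0 lower, beside 17.3% and 14.9% of all measured genes. Dhcr7, a reductase of the last steps (ENSMUSG00000058454.15, chromosome 7, 143823145 to 143848410, plus strand), had 193 control and 752 AEW counts, or 21.3 and 50.7 CPM, and was 2.38-fold higher (2.03 to 2.80). Sc5d, the desaturase whose product Dhcr7 reduces (ENSMUSG00000032018.14, chromosome 9, 42251595 to 42264256, minus strand), had 544 control and 1435 AEW counts, or 60.1 and 96.8 CPM, and was 1.61-fold higher (1.46 to 1.78), with a log2 ratio of -0.13 under neuronal marker scaling. Both enzymes act in the last steps of the pathway, but 3 of the 8 enzymes after lanosterol had ratios below 1.

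The remaining 6 late enzymes were not called. Msmo1, a methyl oxidase, had 2170 control and 5272 AEW counts and a ratio of 1.48 (1.41 to 1.56). Total count scaling and a correction for GC content brought Msmo1 to a call (log2 ratios 0.66 and 0.68). Schwann cell and satellite glia scaling did so too (0.72 and 0.87), but with neuronal marker scaling its log2 ratio was -0.25. Hsd17b7, a ketoreductase, showed 459 control and 545 AEW counts, a ratio of 0.725 (0.640 to 0.823), and Ebp, a sterol isomerase, 744 control and 933 AEW counts, a ratio of 0.766 (0.695 to 0.845). Cyp51, the lanosterol demethylase, showed 1431 control and 1963 AEW counts, a ratio of 0.838 (0.782 to 0.898). Its exons overlap Akap9 on the opposite strand (1370 and 1853 counts), and strand use is unknown, so its value is uncertain. Hsd17b7, Ebp and Cyp51 lay below 1 with intervals that exclude it. Nsdhl, a dehydrogenase of the demethylation steps, showed 493 control and 873 AEW counts, a ratio of 1.08 (0.968 to 1.21). Tm7sf2, a sterol reductase, showed 102 control and 195 AEW counts, a ratio of 1.17 (0.915 to 1.499). Its exons overlap Vps51 on the same strand (306 and 928 counts), so its value is uncertain as well.

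**Figure D4:**
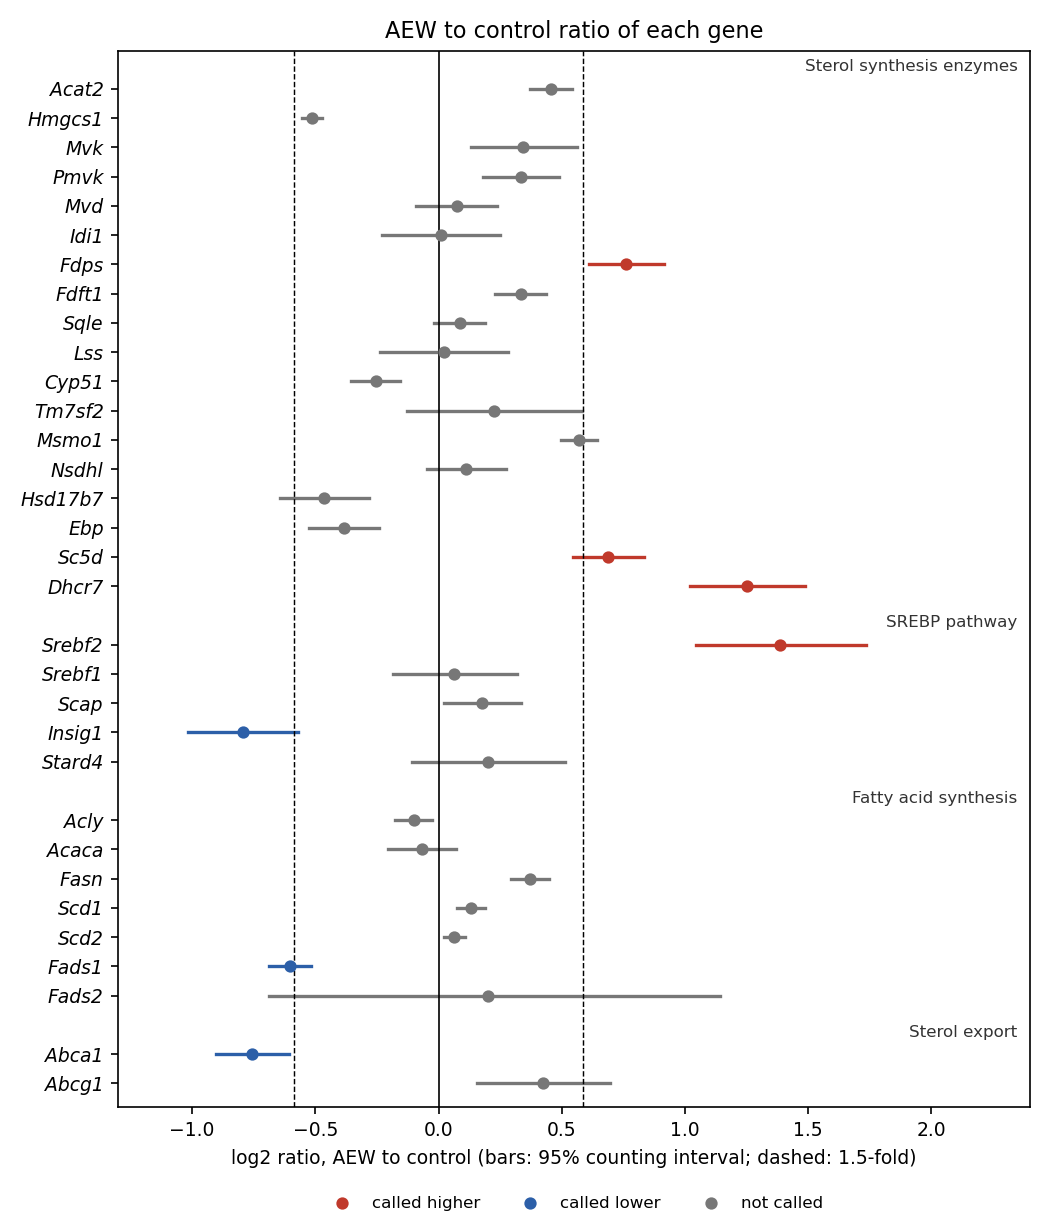
Log2 AEW to control ratio of each of the 32 genes (points) with its 95% counting interval (bars), in pathway order, with dashed lines at 1.5-fold and colour by call. Srebf2, Dhcr7, Fdps and Sc5d lie beyond the upper line, of which Fdps and Sc5d fall below 0 under neuronal marker scaling, and Insig1, Fads1 and Abca1 lie beyond the lower line.

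The control genes of the pathway included both the highest and the lowest ratio of the 32. Srebf2 (ENSMUSG00000022463.8, chromosome 15, 82147181 to 82205379, plus strand) had 88 control and 376 AEW counts, or 9.72 and 25.4 CPM, and was 2.61-fold higher (2.06 to 3.33). Srebf1, which encodes SREBP1 forms that favour fatty acid genes, had 208 control and 356 AEW counts and a ratio of 1.05 (0.879 to 1.25). Its exons overlap Rai1 on the opposite strand (123 and 185 counts), and strand use is unknown. The ratio of Srebf2 was 2.49 (1.85 to 3.37) times that of Srebf1, a comparison that does not depend on library scaling. The proportion of Srebf2 to Srebf1 counts was thus higher in AEW.

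Insig1, which retains SCAP and is itself a known SREBP target (ENSMUSG00000045294.11, chromosome 5, 28071363 to 28078662, plus strand), had 342 control and 323 AEW counts, or 37.8 and 21.8 CPM, and was 1.73-fold lower (1.48 to 2.02). Insig2, its relative and not one of the 32, had 182 control and 431 AEW counts and a ratio of 1.45 (1.21 to 1.73), not called. The ratio of Insig2 was 2.51 (1.98 to 3.18) times that of Insig1. The mix of the 2 SCAP anchors therefore differed between the libraries beyond counting error. Scap showed 514 control and 952 AEW counts, a ratio of 1.13 (1.02 to 1.26), and Stard4, a sterol carrier of the cytosol, 135 control and 254 AEW counts, a ratio of 1.15 (0.929 to 1.43). Neither was called.

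Of 7 genes of fatty acid synthesis and desaturation, 1 was called lower and 0 higher, beside 14.9% and 17.3% of all measured genes. Fads1, a desaturase of polyunsaturated fatty acids (ENSMUSG00000010663.5, chromosome 19, 10182888 to 10196877, plus strand), had 2119 control and 2282 AEW counts, or 234 and 154 CPM, and was 1.52-fold lower (1.43 to 1.61). It lay close to the threshold, and its log2 ratio of -0.60 became -0.52 on total counts and -0.58 after thinning of the AEW counts to the control depth, neither of them called, and the call was also lost with Schwann cell (-0.45) and satellite glia (-0.31) markers. Fads2, its neighbour on chromosome 19, had only 17 control and 32 AEW counts and a ratio of 1.15 (0.620 to 2.21). The ratio of Fads1 was 0.572 (0.297 to 1.07) times that of Fads2, an interval that includes 1, so a difference between these desaturases was not detectable at this depth.

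The enzymes that make saturated fatty acid lay near the control or moderately above it. Acly, which supplies cytosolic acetyl-CoA, showed 2344 control and 3579 AEW counts, a ratio of 0.933 (0.885 to 0.983). Acaca, the carboxylase of the committed step, showed 698 control and 1091 AEW counts, a ratio of 0.955 (0.868 to 1.05), and is uncertain because 52.6% of its 50-base words occur in the pseudogene Gm5182. Fasn, fatty acid synthase, had 2014 control and 4267 AEW counts, or 222 and 288 CPM, a ratio of 1.29 (1.23 to 1.37). None was called.

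The stearoyl-CoA desaturases Scd1 and Scd2 kept nearly the same proportion in both libraries. Scd1 (ENSMUSG00000037071.3, chromosome 19, 44394455 to 44407879, minus strand), abundant in liver, fat and sebaceous gland, had 3694 control and 6626 AEW counts, or 408 and 447 CPM, a ratio of 1.10 (1.05 to 1.14). Scd2 (ENSMUSG00000025203.6, chromosome 19, 44293674 to 44306864, plus strand), the form typical of nervous tissue, had 6902 control and 11809 AEW counts, or 762 and 797 CPM, a ratio of 1.05 (1.01 to 1.08). The ratio of Scd1 was 1.05 (0.997 to 1.10) times that of Scd2. Scd3, a related desaturase known from sebaceous gland and not one of the 32, had 6 control and 138 AEW counts, a ratio of 14.1 (6.29 to 39.0). It shares 3.49% of the 50-base words of Scd1. Sebaceous gland markers were higher in 5 of 6 measured, all but Far2, and their part in the value of Scd3 was not tested.

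The 2 sterol exporters differed from each other. Abca1, which loads cholesterol onto lipid-poor apolipoprotein (ENSMUSG00000015243.4, chromosome 4, 53030787 to 53159895, minus strand), had 756 control and 733 AEW counts, or 83.5 and 49.5 CPM, and was 1.69-fold lower (1.52 to 1.87). Abcg1, which passes sterol to mature lipoprotein particles, had 167 control and 367 AEW counts and a ratio of 1.34 (1.12 to 1.62), not called. The ratio of Abcg1 was 2.27 (1.83 to 2.81) times that of Abca1. Abca1 is well expressed in macrophages, whose markers were lower in 14 of 15, and their part in its ratio was not tested.

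Abca1 and Abcg1 are targets of the liver X receptors (LXR), which sense oxidized sterols. Of 5 other genes of these receptors and their targets, 3 were lower and 0 higher, beside 14.9% and 17.3% of all measured genes, with a median log2 ratio of -0.66. Smpdl3a, a phosphodiesterase, had 462 control and 427 AEW counts and was 1.77-fold lower (1.55 to 2.02). Mylip, a ubiquitin ligase, had 144 control and 148 AEW counts and was 1.59-fold lower (1.26 to 2.02). Nr1h3, the receptor LXR alpha, named after its value was seen, was 1.58-fold lower (1.25 to 2.01) with 142 control and 147 AEW counts. Nr1h3 is also well expressed in macrophages, and their part in its ratio was not tested. The other members of the list were not called, with ratios of 1.32 (1.17 to 1.49) for the acyltransferase Lpcat3 and 1.05 (0.911 to 1.20) for Nr1h2, the receptor LXR beta.

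In all lists of further pathway genes, LXR and fatty acid oxidation included, which hold none of the 32, 11 of 95 measured genes were higher and 10 lower. Both shares lie below the 17.3% and 14.9% of all measured genes. Of 6 measured genes of sterol synthesis, 1 was higher and 1 lower. The lower one was Por, the electron donor of microsomal P450 enzymes, which was 2.04-fold lower (1.84 to 2.27) with 806 control and 646 AEW counts. Acat1, the mitochondrial thiolase, had a ratio of 1.24 (1.14 to 1.35) and Ggps1, which makes geranylgeranyl diphosphate, 0.724 (0.614 to 0.855). The median log2 ratio of this list was -0.03.

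Of 12 measured genes of SREBP control and response, 0 were called, beside 17.3% of all measured genes higher and 14.9% lower. Their median log2 ratio was -0.01. Ube2g2, a ubiquitin-conjugating enzyme, had a ratio of 1.24 (1.08 to 1.43). Rnf139, a ubiquitin ligase, had 0.765 (0.672 to 0.871) and Pgrmc1, a haem-binding membrane protein, 0.930 (0.849 to 1.02).

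Of 22 measured genes of sterol transport and storage, 4 were higher and 2 lower, beside the same 17.3% and 14.9%. Abcg4, a relative of Abcg1 found in the nervous system, was 2.03-fold higher (1.62 to 2.56) and Abca7, akin to Abca1, 1.76-fold higher (1.53 to 2.03), a ratio that neuronal marker scaling brings to just below 1. Cyp27a1, a sterol hydroxylase, was 2.48-fold lower (1.96 to 3.13) and Vldlr, a lipoprotein receptor, 1.66-fold lower (1.45 to 1.89). Of 29 measured genes of other fatty acid and lipid synthesis, 6 were higher, near the 17.3% of all genes, and 2 lower, with a median log2 ratio of 0.25. Elovl6, the elongase of palmitate, had 794 control and 2455 AEW counts and was 1.89-fold higher (1.74 to 2.05). Gpam, a glycerol phosphate acyltransferase, was 3.98-fold lower (1.57 to 11.3) from only 17 control and 7 AEW counts, and Agpat2, which acts after it, 1.56-fold lower (1.28 to 1.90).

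Scaling on neuronal or satellite glia markers moved the counts of called genes among the 32 by more than 1.5 times. Scaling on Schwann cell markers gave 6 higher and 2 lower, beside 23.5% and 10.7% of all measured genes. The median log2 ratio of neuronal markers was 0.82. With it set to 0, 0 of the 32 genes were called higher and 20 lower, beside 3.39% and 61% of all measured genes. With the satellite glia median of -0.30 set to 0, 11 were called higher and 0 lower, beside 31.2% and 7.46% of all measured genes. Over all measured genes, neuronal scaling shifted the median log2 ratio from 0.03 to -0.79 and satellite glia scaling to 0.33. Of all calls, 53.7% were higher with TMM, 62.3% on total counts, 5.27% on neuronal, 68.6% on Schwann cell and 80.7% on satellite glia markers.

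Srebf2 and Dhcr7 were above 0 in all 14 alternatives, with log2 ratios of 0.56 and 0.43 under neuronal marker scaling, where neither was called. Insig1, Abca1, Fads1, Hmgcs1, Hsd17b7 and Ebp were below 0 in all 14. Alternatives that change only a count filter or the call rule leave each ratio as it is, so its sign could not differ there. Insig1 and Abca1 stood at -0.49 and -0.46 under satellite glia scaling, where neither was called.

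**Figure D5:**
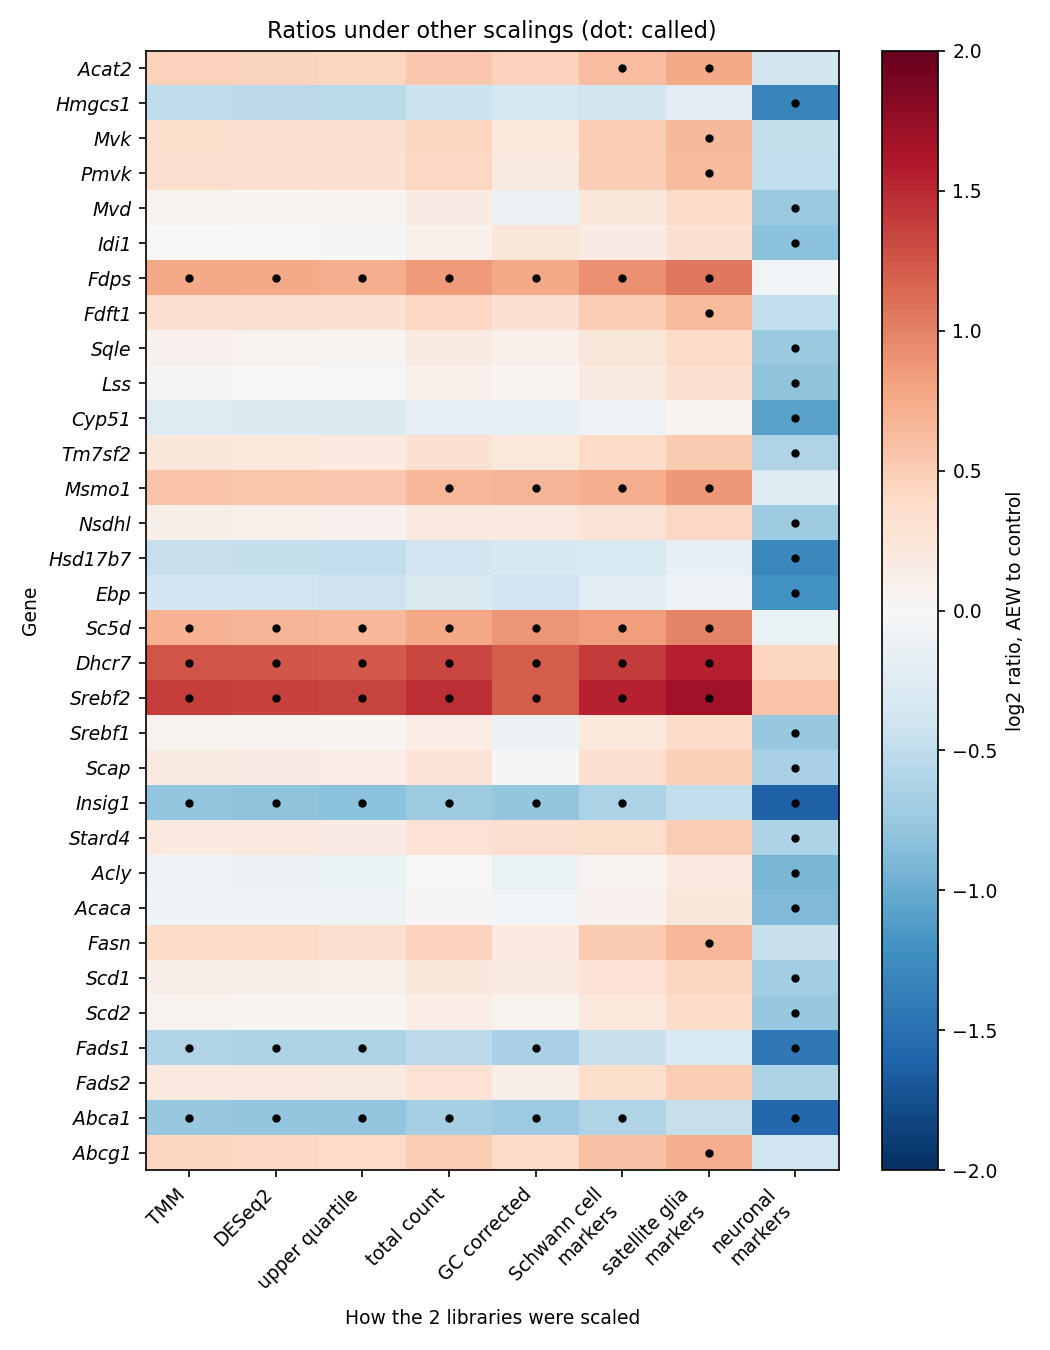
Log2 AEW to control ratio of each of the 32 genes (rows, colour scale) under 8 ways of scaling or correcting the libraries (columns), with a dot where a gene was called. Srebf2 and Dhcr7 keep a positive ratio and Insig1, Fads1 and Abca1 a negative one in each column, while Fdps and Sc5d turn to -0.06 and -0.13 with neuronal markers.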

How the data were processed

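Pooled dorsal root ganglion RNA was measured in 1 control and 1 AEW library. Per the labels' protocols, Trizol RNA (500 ng) went into a Lexogen QuantSeq preparation. The authors deposited raw read counts per gene symbol. Bowtie2, bedtools and mm10 are named in the submitters' processing notes. Tool versions, annotation, strand use and handling of multiply matching reads were not stated in what was used here.

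Libraries were scaled with TMM (edgeR 4.0.16, R 4.3.3; factors 0.970 and 1.03). Ratios of scaled CPM carry exact 95% conditional binomial intervals, and gene pairs were compared by conditional odds ratio (scipy 1.17.1). All intervals cover counting error only, because 1 library per group holds no spread between pools. Reads are not independent molecules, so the intervals may be too narrow even for counting error. With 1 library per group no p-value was computed. The 79 rows with repeated symbols stayed in totals and out of calls. A count of 0 allows up to 3 counts, 0.331 CPM for the control and 0.202 CPM for AEW. Calling was checked on simulated data drawn with counting error only, which hold no variation between animals or pools.

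The 32 genes and all lists were chosen with earlier results of these data known. Named are all 32, Insig2, and from each other pathway list the 2 genes with the highest lower bound and the 2 with the lowest upper bound. A few genes this rule names are not reported here. Marker genes are named where they are at 0, and Far2 was named after its value was seen. Of 290 listed symbols, 287 matched a row. Coordinates and transcripts are from GENCODE M21 and promoter windows from RefSeq, both on mm10. The 14 alternatives covered scaling (DESeq2 1.42.0 size factors among them), count filters, depth, the call rule and GC content, known for 96.3% of measured genes.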

Additional observations from a re-analysis of the deposited data

How the results depend on the processing

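No paired analysis was possible because each group is 1 pooled library, and for the same reason no replicate could be left out. Of the 32 genes, 4 were higher and 3 lower. These became 0 and 20 with neuronal marker scaling, 11 and 0 with satellite glia scaling, 0 and 0 under the rule of 3 scaled deviations, and 2 and 0 at 2-fold. With the whole interval beyond 1.5-fold, 1 was lower. Of the other pathway genes, 11 were higher and 10 lower. These became 1 and 57 with neuronal, 20 and 5 with Schwann cell and 29 and 3 with satellite glia scaling. They were 7 and 4 with the whole interval beyond 1.5-fold, 1 and 0 under the deviation rule, and 3 and 3 at 2-fold. All measured genes moved as well, to 3.39% higher and 61% lower with neuronal scaling. They gave 23.5% and 10.7% with Schwann cell and 31.2% and 7.46% with satellite glia scaling. The shares were 8.93% and 7.21% with the whole interval beyond 1.5-fold, 2.19% and 0.64% under the deviation rule, and 8.23% and 6.85% at 2-fold. The median log2 ratio of all 32 (0.12) was -0.70 with neuronal and 0.42 with satellite glia scaling. That of the sterol enzymes (0.17) was -0.65 and 0.47, and that of the fatty acid genes (0.06) -0.76 and 0.36, with 0.15 on total counts and 0.22 on Schwann cell markers. Fdps (-0.0595) and Sc5d (-0.133) turned negative with neuronal scaling. Each marker scaling shifts every gene by 1 constant. The remaining alternatives left both counts of the 32 within 1.5 times. The repeats for other pathway genes and for gene pairs were chosen after seeing the data. Thinning the AEW library changed no pair call. Depth limits Fads2 most, at a summed count of 49.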

Other observations

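Fatty acid oxidation, the opposing pathway, was measured by 21 listed genes. Of these, 0 were higher and 2 lower, beside 17.3% and 14.9% of all measured genes, and the median log2 ratio was 0.11. Cpt1b, the muscle form of a carnitine acyltransferase, had 38 control and 32 AEW counts and was 1.94-fold lower (1.18 to 3.21). Markers of skeletal muscle were lower in 7 of 10, and their part in the value of Cpt1b was not tested. Ppargc1a, a coactivator of mitochondrial genes, had 304 control and 312 AEW counts and was 1.59-fold lower (1.36 to 1.87). The acyl-CoA dehydrogenases Acadl and Acadm had ratios of 1.34 (1.24 to 1.45) and 1.44 (1.24 to 1.68), neither called.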
